A study of Mus musculus with 16 samples.

Results

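The 33 genes described here mark macrophages and monocytes or carry out their work: growth factor and chemokine receptors, Fc receptors and their signalling adaptors, complement C1q, scavenger receptors and lysosomal enzymes. They were chosen by gene symbol, and all 33 were listed among the 18635 genes with a count in at least 1 of the 4 tables of the series. Macrophages are phagocytes that settle in tissues, and in tumours they arise both from tissue-resident cells and from blood monocytes that enter through the chemokine receptor CCR2. Their survival depends on signalling through the CSF1 receptor, they take up dying cells, lipid and antibody-coated material, and they are among the most common immune cells of pancreatic and ovarian tumours in mice.

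By the labels, RNA was sequenced from 16 mouse tumours in 4 groups. The KPC groups were 53BP1 KO tumours (5 libraries) and tumours of WT genotype (5 libraries). The ID8 groups were 53BP1 KO tumours (3 libraries) and tumours of WT genotype (3 libraries). KPC is a pancreatic and ID8 an ovarian cancer line, and Trp53bp1 encodes the DNA repair factor 53BP1. In the sources used here, every tumour formed after a line had been implanted into syngeneic mice, and the knockout was made in the line. The labels thus describe no change in the mice that supply macrophages. Each genotype is a single line in the labels, so an effect of the knockout and a difference between 2 lines cannot be told apart. The protocol speaks of RNA extracted from cells with a column kit, and whether tumours were dissociated first is not given. The ID8 libraries had 0 counts of the leukocyte gene Ptprc, and whether their RNA came from whole tumours or from cells is not stated. Strain, sex, age, implantation site and time of collection are not given in the sources used here.

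Totals were 17902867 to 19727536 counts per library, so that 3 counts were 0.153 to 0.166 CPM, the depth-scaled count unit used throughout (scaled by the TMM factors of each line), and these limits cover counting error only. The biological coefficient of variation was 25.1% in KPC and 5.08% in ID8. Trp53bp1 was at 27.9 to 37.9 CPM in KPC knockout and 46.7 to 56.0 CPM in KPC wild type (log2 change -0.59, SE 0.0898, edgeR adjusted p = 0.004; exact two-sided permutation p = 0.00794, the smallest that 5 against 5 can give). In ID8 it was at 17.8 to 18.8 CPM in knockout and 44.1 to 49.4 CPM in wild type (log2 change -1.33, SE 0.0667, edgeR adjusted p = 1.15e-10; exact permutation p = 0.1, the smallest that 3 against 3 can give). KPC wild-type replicate 4 stood apart from its group: among the 5 wild-type libraries it had the highest value of 29 of the 32 members tested. Results that rest on it are given with and without it. It was singled out by these same member values, and for those 29 members leaving it out raises the change by construction. Results without it are therefore a description and no separate support. The leukocyte marker Ptprc (CD45) was at 105 to 222 CPM in KPC knockout and 51.0 to 141 CPM in KPC wild-type libraries, and it had 0 counts in all 6 ID8 libraries.

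The upstream sequences of 4 members are shown as examples. In the KPC fit of all libraries, given below, Cx3cr1 passed the edgeR test, while C1qb, C1qc and Ccr2 did not. C1qb and C1qc are members of a trio with nearly equal changes, and Cx3cr1 and Ccr2 are chemokine receptors of monocytes whose changes had opposite signs. Each is the 250 bases before the gene start, 5′ to 3′ on the gene's strand, from RefSeq on GRCm38.p6, which is not the build of the count tables (GRCm39). Capitals mark ACTTCCT, the reverse complement of AGGAAGT, a core motif of the myeloid transcription factor PU.1.
C1qb (chr4:136886201-136886450, minus strand): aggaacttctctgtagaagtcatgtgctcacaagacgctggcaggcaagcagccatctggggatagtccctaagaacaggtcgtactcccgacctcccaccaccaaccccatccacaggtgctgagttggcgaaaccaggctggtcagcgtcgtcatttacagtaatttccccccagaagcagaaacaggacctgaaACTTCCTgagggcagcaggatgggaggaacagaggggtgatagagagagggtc
C1qc (chr4:136892915-136893164, minus strand): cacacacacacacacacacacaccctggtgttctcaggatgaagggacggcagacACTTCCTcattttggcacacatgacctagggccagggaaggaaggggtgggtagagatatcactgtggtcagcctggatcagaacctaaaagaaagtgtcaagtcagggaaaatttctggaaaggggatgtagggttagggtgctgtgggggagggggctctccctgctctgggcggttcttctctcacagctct
Cx3cr1 (chr9:120068297-120068546, minus strand): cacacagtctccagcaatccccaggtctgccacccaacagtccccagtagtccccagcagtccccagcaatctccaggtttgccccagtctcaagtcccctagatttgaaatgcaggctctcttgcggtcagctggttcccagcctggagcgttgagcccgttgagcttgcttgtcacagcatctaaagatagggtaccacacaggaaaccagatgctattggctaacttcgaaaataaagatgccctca
Ccr2 (chr9:124101933-124102182, plus strand): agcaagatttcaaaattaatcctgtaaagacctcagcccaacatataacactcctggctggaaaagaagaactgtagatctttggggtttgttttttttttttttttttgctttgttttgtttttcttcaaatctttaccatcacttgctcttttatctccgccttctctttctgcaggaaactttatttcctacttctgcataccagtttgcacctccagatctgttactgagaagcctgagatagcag

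The motif starts 53 bases before the start of C1qb and 195 bases before that of C1qc, and it is not in these windows of Cx3cr1 and Ccr2. Of the 33 members, 27 had an entry in the promoter table, and 7 of these (25.9%) held AGGAAGT on either strand: C1qb, C1qc, Fcgr1, Folr2, Lyz2, Mrc1 and Spp1. Of 27025 annotated genes, 2377 did (8.8%). None of the 7 members with AGGAAGT passed the edgeR test in the KPC fit of all libraries. The members that passed there, Cd163, Ctss, Lgals3, Fcgr2b, Fcgr3 and Cx3cr1, had entries without AGGAAGT. A link between the motif and the changes was not tested. The AP-1 motif TGACTCA, searched on both strands of the same windows, was in 2 of 27 members (7.41%), Cd68 and Folr2, against 5.16% of genes. These are matches of letters, which do not overlap between the motifs, and not sites of binding.

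In KPC tumours most macrophage genes had higher values in knockout than in wild type, but the groups overlapped for most of them. Of 32 members tested, 5 rose: the haemoglobin scavenger receptor gene Cd163, the lysosomal protease gene Ctss, the galectin gene Lgals3 and the Fc receptor genes Fcgr2b and Fcgr3. A single member fell, the fractalkine receptor gene Cx3cr1. The other 26 did not pass an edgeR adjusted p of 0.05, which was computed over all 14283 genes tested. Among all genes tested 13.7% passed, 6.67% as higher and 7.01% as lower.

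By sign, 30 of 32 members had a positive log2 change and 2, Cx3cr1 and Spp1, a negative one. The median over the members was 0.70 on the log2 scale (range -0.89 to 1.16), a fold of 1.62, while over all genes tested it was -0.01, with 48.2% of changes positive. Unadjusted edgeR p-values were under 0.05 for 24 of 32 members, against 4637 of the 14283 genes tested. An edgeR adjusted p between 0.05 and 0.1 was found for 12 members, and the share of all genes in that range was not counted. Members moved together across libraries, so their signs are not separate observations. In bulk tumour RNA, a different number of macrophages and a different amount of RNA per macrophage cannot be told apart.

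**Figure D1:**
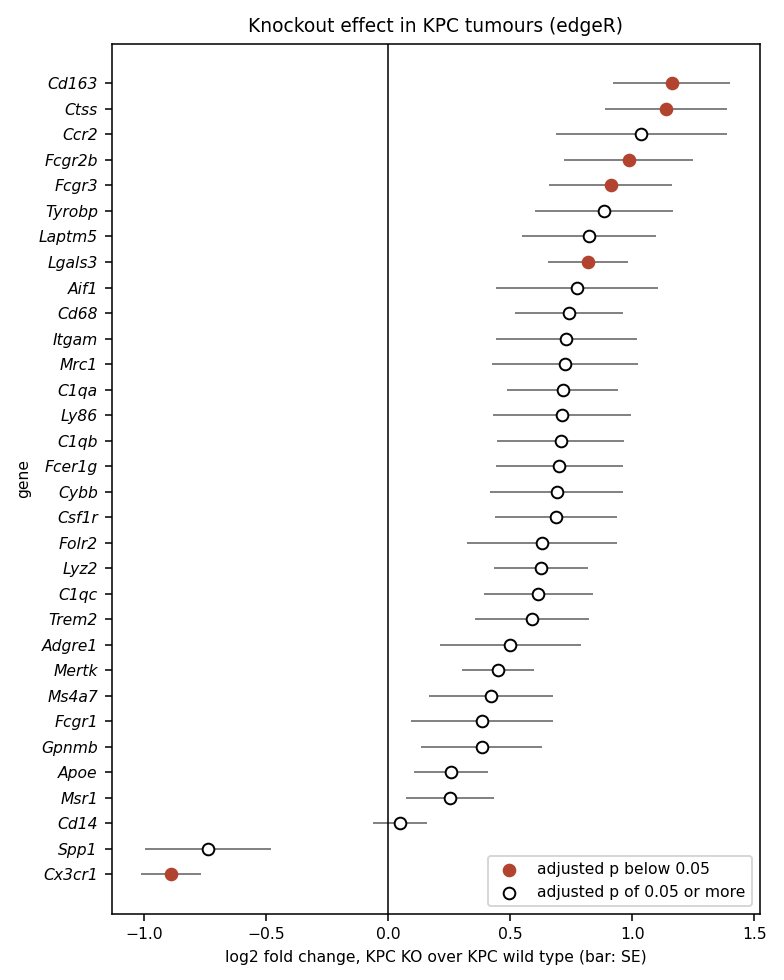
Log2 fold change of the 32 members tested in KPC tumours, knockout over wild type, with the SE as a bar (x axis), in order of size (y axis). Filled points passed an edgeR adjusted p of 0.05: Cd163, Ctss, Fcgr2b, Fcgr3 and Lgals3 lie right of 0 and Cx3cr1 lies left of it.

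Most members ranked the libraries alike. Relative to the 10-library mean of each gene, the median member was at 0.77, -0.14, 0.14, 0.63 and 0.23 on the log2 scale in knockout replicates 1 to 5. In wild-type replicates 1 to 5 it was at -0.50, -0.63, -0.20, 0.34 and -0.75. Knockout replicates 1 and 4 were thus the highest, and wild-type replicate 4 lay above knockout replicates 2, 3 and 5. Knockout replicate 1 held the highest knockout value for 19 members and replicate 4 for 9.

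Over all 10 libraries the groups did not overlap for 3 members: Cd163 and Lgals3 were higher and Cx3cr1 lower in every knockout than in every wild-type library. Among all genes tested, 5.34% were higher without overlap and 6.42% lower. Without wild-type replicate 4, 20 of the 32 were higher in every knockout library (background 10.6%) and 2, Cx3cr1 and Spp1, were lower (background 10.5%). In the edgeR fit without that library 25 members rose, where 11.5% of 14356 genes did, and Cx3cr1 and Spp1 fell, where 10.2% of genes did. That library was left out because of its member values, so these counts are no separate support. The members that did not pass even then were Fcgr1, Cd14, Apoe, Gpnmb and Msr1. Leaving out any other single library gave 4 to 8 members called.

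**Figure D2:**
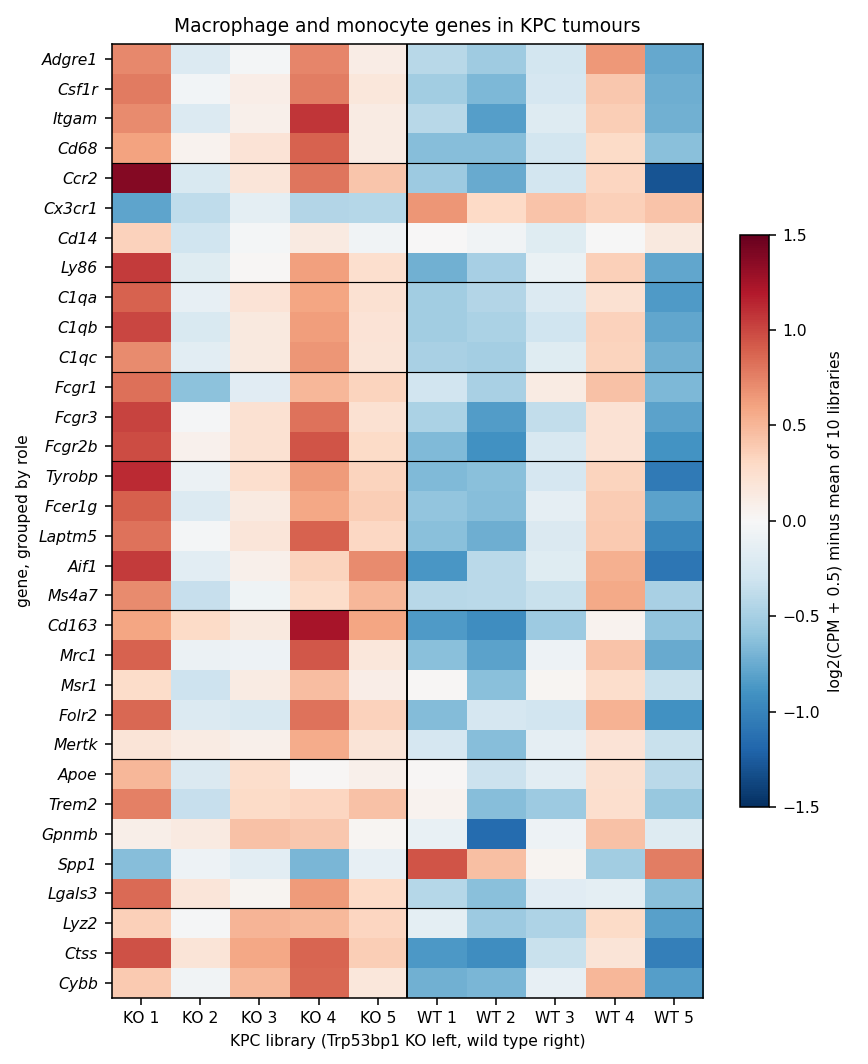
Log2(CPM + 0.5) of each tested member minus its mean over the 10 KPC libraries (colour), with genes grouped by role (y axis) and knockout libraries left of wild-type libraries (x axis). Knockout replicates 1 and 4 and wild-type replicate 4 are red for most genes. In the rows of Cx3cr1 and Spp1 these knockout replicates are blue, while wild-type replicate 4 is blue for Spp1 and red for Cx3cr1.

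The lineage markers had similar changes, and none of the 4 passed. Csf1r, the receptor on which macrophage survival depends, had 464, 264, 289.6, 460.2 and 305 CPM in knockout replicates 1 to 5, against 188, 170.1, 228, 359 and 162 CPM in wild-type replicates 1 to 5. All knockout libraries were above wild-type replicates 1, 2, 3 and 5, and 3 of them were below wild-type replicate 4. The gene did not pass (log2 change 0.69, SE 0.249, edgeR adjusted p = 0.0884).

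Adgre1, which encodes the mouse macrophage marker F4/80, had 137, 71.5, 80.9, 138 and 89.4 CPM in the knockout libraries, against 62.0, 56.9, 68.4, 129.6 and 48.1 CPM in the wild-type libraries. Its wild-type replicate 4 lay below knockout replicates 1 and 4 and above the other 3 knockout libraries (log2 change 0.50, SE 0.289, edgeR adjusted p = 0.252). Cd68, a membrane protein of lysosomes and endosomes in phagocytes, had 118 ± 30.7 CPM in knockout and 70.6 ± 22.3 CPM in wild type (SD, n = 5 each), and it missed the threshold narrowly (log2 change 0.74, SE 0.222, edgeR adjusted p = 0.0515). Itgam, the integrin chain CD11b that monocytes, macrophages and neutrophils share, ranged over 92.9 to 227 CPM in knockout and 60.4 to 139 CPM in wild type (log2 change 0.73, SE 0.289, edgeR adjusted p = 0.111). Without wild-type replicate 4 all 4 lineage markers rose.

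The chemokine receptors of monocytes had changes of opposite sign. Cx3cr1 is the fractalkine receptor, high on patrolling monocytes and on several kinds of resident macrophage. It had 10.3, 13.8, 16.4, 13.3 and 13.3 CPM in knockout replicates 1 to 5, against 29.2, 22.4, 24.7, 23.5 and 24.7 CPM in wild-type replicates 1 to 5. All knockout libraries lay below all wild-type libraries, at 0.540 of the wild-type level (log2 change -0.89, SE 0.122, edgeR adjusted p = 0.00264).

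Ccr2, which brings inflammatory monocytes out of the bone marrow and into tissue, had 144, 47.1, 62.6, 96.6 and 74.0 CPM in the knockout libraries, against 37.6, 32.3, 45.5, 69.1 and 22.1 CPM in the wild-type libraries. The knockout mean was 2.05 times that of wild type, but knockout replicates 2 and 3 lay below wild-type replicate 4, and the gene did not pass (log2 change 1.04, SE 0.349, edgeR adjusted p = 0.0732). Wild-type replicate 4, high for most other members, was the second lowest of its group for Cx3cr1.

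Cd14, a co-receptor for bacterial lipopolysaccharide, differed least among the members. It had 148, 94.8, 115, 129 and 112 CPM in the knockout libraries, against 117, 113, 103, 116 and 130.1 CPM in the wild-type libraries, and knockout libraries included both the lowest and the highest value (log2 change 0.05, SE 0.111, edgeR adjusted p = 0.784). Its sign turned negative without knockout replicate 1. Ly86, which pairs with the Toll-like receptor relative CD180, ranged over 38.4 to 90.5 CPM in knockout and 25.0 to 55.6 CPM in wild type (log2 change 0.71, SE 0.281, edgeR adjusted p = 0.11).

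**Figure D3:**
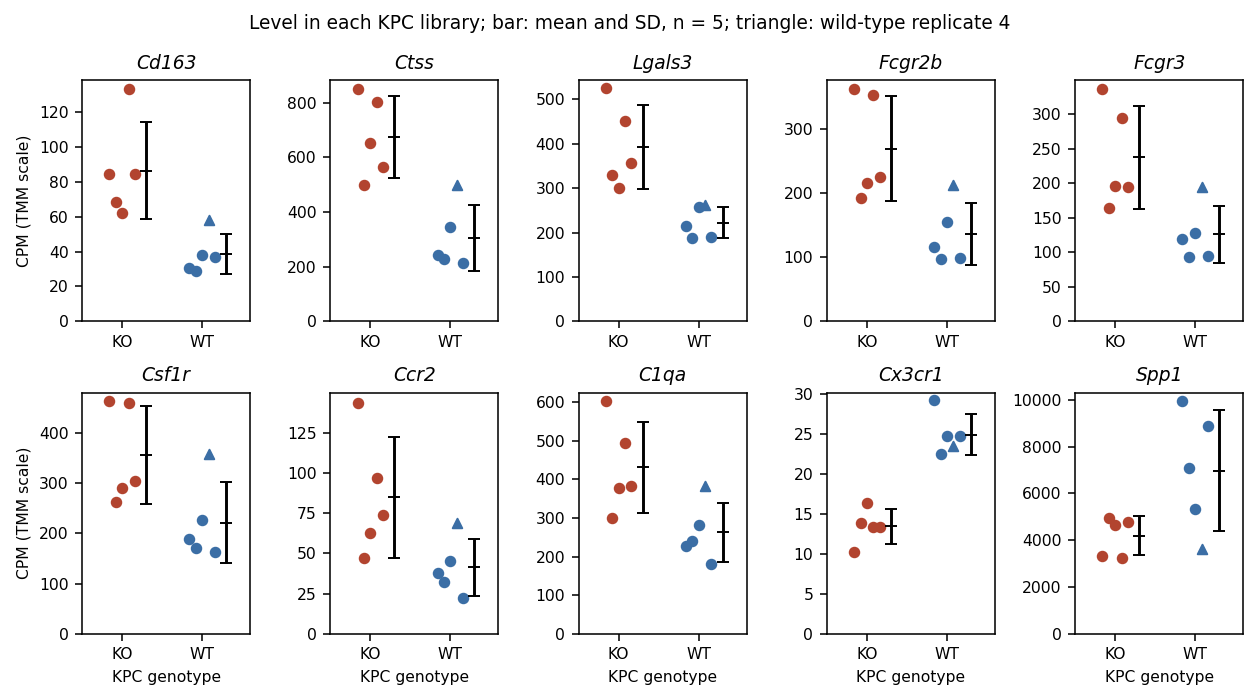
Level in CPM (y axis, TMM scale) of 10 members in each KPC library, knockout left and wild type right, with the mean and SD (n = 5) beside the points and wild-type replicate 4 as a triangle. Cd163 and Lgals3 are higher in every knockout library and Cx3cr1 is lower in every knockout library, while for Csf1r, Ccr2 and C1qa the triangle lies among the knockout points.

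The 3 chains of complement C1q, which macrophages secrete and which binds antibody complexes and dying cells, had nearly equal changes. C1qa had 603, 300.3, 377, 493 and 383 CPM in the knockout libraries, against 228, 239.8, 282, 383 and 181 CPM in the wild-type libraries. C1qb ranged over 294 to 691 CPM in knockout and 201 to 438 CPM in wild type, and C1qc over 279 to 510.1 CPM in knockout and 188 to 392 CPM in wild type. Their log2 changes were 0.71, 0.71 and 0.62, with edgeR adjusted p-values of 0.0598, 0.0913 and 0.0889, so none passed. Knockout replicate 1 was the highest and wild-type replicate 5 the lowest library for all 3, and all 3 rose without wild-type replicate 4.

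Of the Fc receptors for immunoglobulin G, 2 of 3 rose. Fcgr2b, the inhibitory receptor, had 362, 192, 215, 352 and 225 CPM in the knockout libraries, against 115, 97.3, 156, 213 and 98.7 CPM in the wild-type libraries. Only wild-type replicate 4 reached into the knockout range, and it reached above knockout replicate 2 alone (log2 change 0.98, SE 0.264, edgeR adjusted p = 0.0362). Fcgr3, an activating receptor, had 337, 165, 196, 295 and 195 CPM in the knockout libraries, against 119.8, 93.4, 129, 195 and 95.3 CPM in the wild-type libraries.

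For Fcgr3 too, wild-type replicate 4 was the one library that reached the knockout range, above knockout replicate 2 only (log2 change 0.91, SE 0.251, edgeR adjusted p = 0.0393). Both calls were lost when 1 library was left out, except when it was knockout replicate 2 or wild-type replicate 4, with edgeR adjusted p-values of up to 0.0892 for Fcgr3 and 0.0859 for Fcgr2b. The extracellular exons of the pair are closely similar in the mouse, and reads shared between them were divided by the authors' counting, so their separate levels are uncertain. Fcgr1, the high-affinity receptor CD64, ranged over 17.8 to 49.1 CPM in knockout and 17.1 to 37.5 CPM in wild type and did not pass (log2 change 0.38, SE 0.292, edgeR adjusted p = 0.382).

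None of the 5 genes of the signalling adaptors and leukocyte membrane proteins passed. Tyrobp encodes DAP12, the adaptor of TREM2 and other receptors. It had 207, 90.0, 114, 149.7 and 120.2 CPM in the knockout libraries, against 60.4, 61.9, 80.2, 121 and 45.7 CPM in the wild-type libraries. Knockout replicates 2, 3 and 5 lay below wild-type replicate 4 and above the other 4 wild-type libraries (log2 change 0.88, SE 0.284, edgeR adjusted p = 0.0628).

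Fcer1g, the Fc receptor gamma chain, had 102 ± 29.7 CPM in knockout and 63.0 ± 23.1 CPM in wild type, and Laptm5, a lysosomal membrane protein of blood cells, had 328 ± 91.3 CPM in knockout and 185 ± 75.6 CPM in wild type (SD, n = 5 each). Their log2 changes were 0.70 (edgeR adjusted p = 0.0945) and 0.82 (edgeR adjusted p = 0.0697). Aif1, the actin-binding protein IBA1, ranged over 16.3 to 38.1 CPM in knockout and 8.31 to 26.5 CPM in wild type (log2 change 0.77, SE 0.332, edgeR adjusted p = 0.137). Ms4a7, a membrane protein of macrophages, had a wild-type replicate 4 at 47.0 CPM while the other wild-type libraries were at 22.4 to 25.0 CPM, and it did not pass (log2 change 0.42, SE 0.254, edgeR adjusted p = 0.271). Except for Fcer1g and Ms4a7, every knockout library of these genes was above wild-type replicates 1, 2, 3 and 5.

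Cd163 stood out among the scavenger and uptake receptors. It clears haemoglobin bound to haptoglobin and is high on several kinds of tissue macrophage. It had 84.3, 68.4, 62.1, 133 and 84.6 CPM in knockout replicates 1 to 5, against 30.8, 29.1, 38.3, 58.1 and 36.9 CPM in wild-type replicates 1 to 5. The lowest knockout library was above the highest wild-type library, the knockout level was 2.24 times that of wild type (log2 change 1.16, SE 0.240, edgeR adjusted p = 0.0153), and the call held without each single library.

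Mrc1, the mannose receptor CD206, had 554, 281, 285, 572 and 337 CPM in the knockout libraries, against 194, 171, 284, 402 and 176 CPM in the wild-type libraries (log2 change 0.72, SE 0.300, edgeR adjusted p = 0.124). Knockout replicates 2 and 3 were level with wild-type replicate 3. Folr2, a folate receptor of resident macrophages, ranged over 35.3 to 76.8 CPM in knockout and 22.1 to 60.2 CPM in wild type (log2 change 0.63, SE 0.308, edgeR adjusted p = 0.184). Mertk, a kinase receptor for the uptake of dying cells, had 54.4 ± 7.78 CPM in knockout and 39.8 ± 8.65 CPM in wild type (SD, n = 5 each; log2 change 0.45, SE 0.148, edgeR adjusted p = 0.0658).

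Msr1, a scavenger receptor for modified lipoproteins, had one of the smaller changes (log2 change 0.25, SE 0.180, edgeR adjusted p = 0.349), and its groups ranged over 35.3 to 60.5 CPM in knockout and 28.2 to 52.8 CPM in wild type. Marco, another scavenger receptor, was listed but did not pass the filter on low counts, at 0.106 to 1.91 CPM in knockout and 0.0547 to 1.45 CPM in wild type. It was the one member not tested in KPC.

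Of the 5 genes of lipid-associated macrophages 1 rose and none fell, while the changes had both signs. Lgals3, which encodes the carbohydrate-binding protein galectin-3 and is also expressed by epithelial cells, had 526, 329.6, 299.6, 452 and 357 CPM in knockout replicates 1 to 5, against 216, 189, 258, 262 and 189 CPM in wild-type replicates 1 to 5. The groups did not overlap (log2 change 0.82, SE 0.166, edgeR adjusted p = 0.0138). This gene kept its call without each single library.

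Spp1, the secreted phosphoprotein osteopontin, made by cancer cells as well as by macrophages, had the opposite sign. It had 3324, 4943, 4644, 3232 and 4781 CPM in knockout replicates 1 to 5, against 9968, 7084, 5353, 3606 and 8877 CPM in wild-type replicates 1 to 5. Wild-type replicate 4 was the only wild-type library inside the knockout range, and the gene did not pass with it (log2 change -0.74, SE 0.257, edgeR adjusted p = 0.0797). Without it the log2 change was -0.90 and passed (edgeR adjusted p = 0.0129).

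The remaining lipid-associated genes did not pass. Apoe, the lipoprotein made in large amounts by macrophages, had 2179, 1322, 1849, 1556 and 1623 CPM in the knockout libraries, against 1559.6, 1229, 1376, 1811 and 1159 CPM in the wild-type libraries (log2 change 0.26, SE 0.152, edgeR adjusted p = 0.261). Trem2, a lipid-sensing receptor, ranged over 19.5 to 42.5 CPM in knockout and 15.8 to 29.6 CPM in wild type (log2 change 0.59, SE 0.232, edgeR adjusted p = 0.109), and Gpnmb, a glycoprotein of lipid-loaded macrophages, over 10.4 to 14.0 CPM in knockout and 4.30 to 14.0 CPM in wild type (log2 change 0.38, SE 0.248, edgeR adjusted p = 0.303).

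Among the lysosomal and microbicidal genes, Ctss rose. It encodes cathepsin S, which trims the invariant chain for antigen presentation on MHC class II. Ctss had 849, 499, 652, 803 and 567 CPM in knockout replicates 1 to 5, against 242, 229, 346, 500.4 and 214 CPM in wild-type replicates 1 to 5, a knockout mean 2.20 times that of wild type (log2 change 1.14, SE 0.251, edgeR adjusted p = 0.0187). One pair of libraries overlapped, knockout replicate 2 and wild-type replicate 4, at 499 and 500.4 CPM. Leaving out each library gave edgeR adjusted p-values of 0.0029 to 0.0499.

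Lyz2, the lysozyme of macrophages and neutrophils, had 1890.3, 1463, 2112, 2077 and 1853 CPM in the knockout libraries, against 1341, 1017, 1077, 1809 and 840.1 CPM in the wild-type libraries (log2 change 0.63, SE 0.191, edgeR adjusted p = 0.0533). Reads of Lyz2 can be shared with its near copy Lyz1. Cybb, the catalytic subunit of the phagocyte NADPH oxidase, ranged over 83.2 to 158 CPM in knockout and 48.5 to 122 CPM in wild type (log2 change 0.69, SE 0.272, edgeR adjusted p = 0.11). Both rose without wild-type replicate 4.

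Ratios between transcripts of the same library set members against each other or against the leukocyte marker Ptprc. They were formed as log2 ratios of CPM with 0.5 CPM added, and only differences between genotypes are read from them, since CPM are not adjusted for gene length. Lists of T cell, NK cell and dendritic cell markers had median log2 changes of 1.54, 1.69 and 1.62 in KPC. The part of such cells in the ratios was not tested. Of 5 ratios, 2 differed by an exact two-sided permutation test with Benjamini-Hochberg adjustment over the 5. The log2 ratio of Adgre1 to Ptprc was -0.67, -0.55, -0.72, -0.69 and -0.62 in the knockout libraries, against 0.28, 0.00412, -0.44, -0.12 and -0.09 in the wild-type libraries.

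All knockout libraries lay below all wild-type libraries, with means of -0.65 ± 0.0653 in knockout and -0.07 ± 0.257 in wild type (SD, n = 5 each) and a difference of -0.57 (exact p = 0.00794, adjusted 0.0397). The macrophage marker was thus lower relative to the general leukocyte marker in knockout, although neither gene passed alone (Ptprc log2 change 1.05, SE 0.331, edgeR adjusted p = 0.0596). The log2 ratio of Ccr2 to Adgre1 was 0.07, -0.60, -0.37, -0.51 and -0.27 in the knockout libraries, against -0.71, -0.80, -0.58, -0.90 and -1.10 in the wild-type libraries. Knockout replicate 2 lay just below wild-type replicate 3, and the others did not overlap.

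The Ccr2 to Adgre1 means were -0.33 ± 0.260 in knockout and -0.82 ± 0.196 in wild type (SD, n = 5 each), a difference of 0.49 (exact p = 0.0159, adjusted 0.0397). Without wild-type replicate 4 the differences were -0.59 for Adgre1 to Ptprc (exact adjusted p = 0.0397) and 0.47 for Ccr2 to Adgre1 (exact adjusted p = 0.0529). Of 10 fits without a single library, 7 lost the call for Adgre1 to Ptprc and 8 for Ccr2 to Adgre1 (exact adjusted p of at most 0.0794), all with the same sign, where 4 against 5 libraries limit the p-value. The calls that held were those without knockout replicate 2 or wild-type replicate 3 and, for Adgre1 to Ptprc, wild-type replicate 4. The ratio of Spp1 to Csf1r was lower by 1.38 in knockout on the log2 scale, at 3.57 ± 0.686 in knockout and 4.95 ± 1.03 in wild type, and did not pass (exact p = 0.0556, adjusted 0.0926). Without wild-type replicate 4 it was lower by 1.79 and passed (exact adjusted p = 0.0397).

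The ratios of Trem2 to Csf1r and of Mrc1 to Csf1r did not pass (exact p = 0.54 and 0.77, adjusted 0.675 and 0.77), with differences of -0.12 and 0.02. Their means were -3.48 ± 0.309 in knockout and -3.36 ± 0.336 in wild type for Trem2 to Csf1r, and 0.16 ± 0.134 in knockout and 0.13 ± 0.122 in wild type for Mrc1 to Csf1r (SD, n = 5 each). Chosen after the values were seen and therefore given without a test, the log2 ratio of Cx3cr1 to Csf1r differed by -1.58, that of Cx3cr1 to Ccr2 by -1.90 and that of Cd163 to Csf1r by 0.43.

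**Figure D4:**
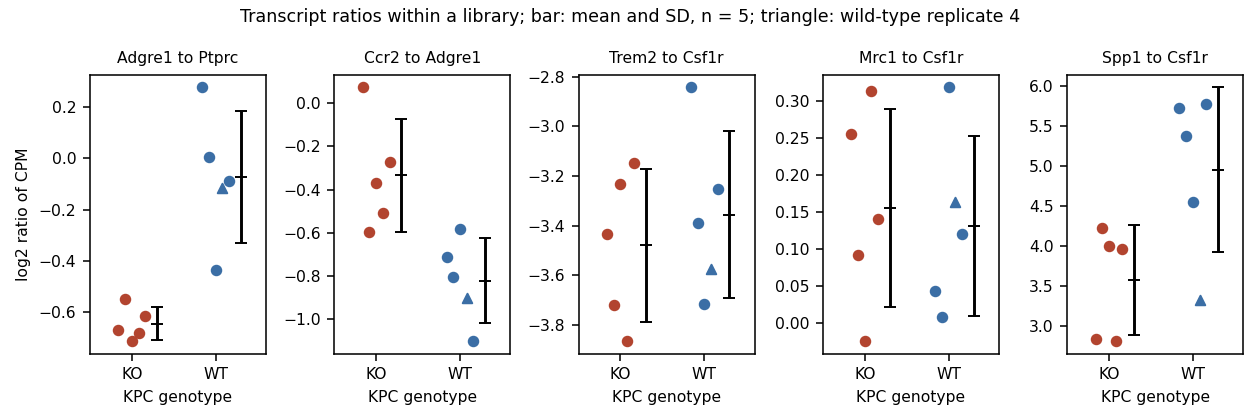
Log2 ratio of CPM of 5 transcript pairs within each KPC library (y axis, a separate scale per panel), knockout left and wild type right, with the mean and SD (n = 5) beside the points and wild-type replicate 4 as a triangle. Adgre1 to Ptprc is lower in every knockout library, Ccr2 to Adgre1 is higher in all but one comparison of libraries, and Trem2 and Mrc1 to Csf1r overlap widely.

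Other genes of macrophage biology were counted by list in the KPC comparison. Further components of the phagocyte NADPH oxidase rose. Ncf1, a cytosolic subunit, had 114 ± 41.0 CPM in knockout and 52.8 ± 19.1 CPM in wild type, Ncf4, another, had 25.7 ± 7.52 CPM in knockout and 12.8 ± 4.08 CPM in wild type, and Cyba, the partner chain of CYBB, had 179 ± 37.6 CPM in knockout and 125 ± 14.5 CPM in wild type (SD, n = 5 each). Their log2 changes were 1.12, 1.00 and 0.52, with edgeR adjusted p-values of 0.0312, 0.0234 and 0.0322. Rac2, a small GTPase of the same complex, named after its value was seen, did not pass (log2 change 1.11, SE 0.341, edgeR adjusted p = 0.0557).

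Of 11 growth and lineage factor genes, 4 rose and none fell (median 0.37). Csf2, the growth factor GM-CSF, had 4.06 ± 1.71 CPM in knockout and 1.36 ± 0.464 CPM in wild type (log2 change 1.57, SE 0.345, edgeR adjusted p = 0.0173). The receptor chain Csf2ra (log2 change 1.03, SE 0.246, edgeR adjusted p = 0.025) and the transcription factor Irf8, needed for monocytes and dendritic cells (log2 change 1.12, SE 0.285, edgeR adjusted p = 0.0305), rose with it. The fourth was the receptor chain Csf2rb. Spi1, the gene of PU.1, named after its value was seen, did not pass (log2 change 0.93, SE 0.298, edgeR adjusted p = 0.0619).

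Of 18 genes of adaptor and receptor signalling 5 rose and none fell (median 0.69). They were Clec7a, the fungal glucan receptor dectin-1 (181 ± 53.1 CPM in knockout and 70.7 ± 34.8 CPM in wild type, log2 change 1.35, SE 0.332, edgeR adjusted p = 0.0275), and the kinase genes Btk (log2 change 1.12, SE 0.283, edgeR adjusted p = 0.0293), Fgr (log2 change 1.25, SE 0.316, edgeR adjusted p = 0.0299) and Syk, together with the phospholipase gene Plcg2. All 18 had a positive change.

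Of 14 genes of lysosomes and lipid handling 3 rose and none fell (median 0.21). These were the fatty acid binding protein gene Fabp5 (log2 change 1.10, SE 0.276, edgeR adjusted p = 0.0293), the cholesterol exporter gene Abcg1 (log2 change 0.96, SE 0.244, edgeR adjusted p = 0.0304) and the cathepsin gene Ctsz (log2 change 0.58, SE 0.154, edgeR adjusted p = 0.0327).

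The monocyte and resident macrophage lists held the declines. Of 12 monocyte genes none rose and 1 fell, while 8 had a positive change (median 0.49). Nr4a1, a nuclear receptor required for patrolling monocytes in the mouse, had 42.1 ± 8.45 CPM in knockout and 77.0 ± 30.6 CPM in wild type (SD, n = 5 each; log2 change -0.87, SE 0.240, edgeR adjusted p = 0.0391). Nr4a1 is an early-response gene in many cell types. Other genes of patrolling monocytes on the list, named after their values were seen, had positive changes and did not pass: Itgal (log2 change 1.34, SE 0.421, edgeR adjusted p = 0.0599), Spn (log2 change 0.85, SE 0.285, edgeR adjusted p = 0.0708) and Treml4 (log2 change 0.29, SE 0.268, edgeR adjusted p = 0.475). Of 9 tested genes of resident and scavenging macrophages none rose and 1 fell (median 0.29): Axl, a receptor kinase of the same family as Mertk, had 360.3 ± 30.3 CPM in knockout and 452 ± 47.3 CPM in wild type (log2 change -0.33, SE 0.0878, edgeR adjusted p = 0.0347). It is also expressed by cancer cells and fibroblasts, and it was at 579 CPM in ID8 knockout and 502 CPM in ID8 wild type.

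None of the 9 ligands of member receptors passed (median 0.20). Gas6 and Pros1, the ligands of MERTK and AXL, had log2 changes of 0.07 and -0.08 (edgeR adjusted p = 0.892 and 0.653). Named after their values were seen, Csf1, the ligand of the CSF1 receptor, did not pass (log2 change 0.35, SE 0.207, edgeR adjusted p = 0.268). Neither did the CCR2 ligand gene Ccl2 (log2 change 0.38, SE 0.243, edgeR adjusted p = 0.301) or Cx3cl1, the ligand of CX3CR1 (log2 change 0.05, SE 0.157, edgeR adjusted p = 0.865).

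Markers of other cells also differed between the KPC groups. Of the pan-leukocyte markers 3 of 5 rose, with a summed level of 671 to 1372 CPM in knockout and 281 to 735 CPM in wild type. Of T cell markers 1 of 6 rose (52.3 to 101 CPM in knockout and 6.78 to 61.1 CPM in wild type), of NK cell markers none of 4 (14.8 to 35.1 CPM in knockout and 2.46 to 20.6 CPM in wild type) and of dendritic cell markers 3 of 6 (79.6 to 135 CPM in knockout and 19.6 to 71.0 CPM in wild type). Neutrophil markers, 2 of 6 higher, summed to 70.9 to 184 CPM in knockout and 26.1 to 60.5 CPM in wild type, with Retnlg at 55.5 ± 26.7 CPM in knockout and 3.62 ± 2.89 CPM in wild type (SD, n = 5 each). S100a8 and S100a9 did not pass (log2 change 0.38 and 0.28, edgeR adjusted p = 0.574 and 0.667). Others, named after their values were seen, were Cxcr2 and Csf3r, which did not pass (log2 change 1.02 and 0.57, edgeR adjusted p = 0.167 and 0.252). Ly6g, also named afterwards, rose but was at most 1.15 CPM in knockout.

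Wild-type replicate 4 was the highest wild-type library for the summed pan-leukocyte, T cell, NK cell, B cell, dendritic cell and eosinophil markers too. It was also the highest for endothelial, fibroblast and erythroid markers, but not for neutrophil, mast cell, epithelial cancer, skeletal muscle or adipocyte markers. Itgam, Lyz2, Fcgr3, Tyrobp, Fcer1g, Cybb and other members are also expressed by neutrophils or dendritic cells. Of eosinophil markers 3 of 4 tested rose (170.3 to 264 CPM in knockout and 139 to 199 CPM in wild type), while their granule peroxidase Epx was at most 0.155 CPM in any KPC library. Most of these sums was Il5ra, at 173 CPM in knockout and 160 CPM in wild type. It did not pass (log2 change 0.11, edgeR adjusted p = 0.58). Siglecf, Prg2 and Ccr3 rose, with 15.4, 4.58 and 15.3 CPM in knockout and 2.87, 0.323 and 1.26 CPM in wild type. Il5ra and Ccr3 were named after their values were seen. Of mast cell markers 1 of 4 rose (104 to 142 CPM in knockout and 45.8 to 91.7 CPM in wild type), and that was the protease gene Mcpt4 (72.5 ± 20.4 CPM in knockout and 30.8 ± 10.2 CPM in wild type, SD, n = 5 each), while the other 3 had log2 changes of -0.11 to 0.41. Of B cell markers 1 of 2 tested rose (3.06 to 7.88 CPM in knockout and 0.931 to 3.20 CPM in wild type). No marker list had a gene at 0 in all libraries of either KPC genotype.

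Endothelial and fibroblast markers had 0 of 6 called each and medians of 0.12 and 0.14, with sums of 324 to 451 CPM in knockout and 281 to 423 CPM in wild type for endothelial and 9651 to 13889.5 CPM in knockout and 8166 to 12959 CPM in wild type for fibroblast markers. Epithelial cancer markers rose for 4 of 5, with 7994 to 9834 CPM in knockout and 4787 to 6007 CPM in wild type. Skeletal muscle markers had 0 of 6 called, a median of -1.99 and sums of 7.74 to 5577 CPM in knockout and 475 to 27963 CPM in wild type. Adipocyte markers (0 of 4 called, 13.1 to 27.3 CPM in knockout and 22.2 to 105 CPM in wild type) and erythroid markers (0 of 4 called, 72.1 to 201 CPM in knockout and 76.4 to 182 CPM in wild type) did not pass either. The part of these other cell types in the member values was not tested, apart from muscle. With a muscle score as a covariate only Cx3cr1 kept its call and the median change over the members was 0.54, while calls over all genes dropped to 437, against 1953 without the covariate. The 4 libraries with Acta1 above 1000 CPM were wild-type replicates 2 and 4 and knockout replicates 2 and 5. Without them 27 members passed, with a median of 1.11, and 2020 genes passed in all. They include the lowest knockout library for the median member, replicate 2 (-0.14), and the highest wild-type library, replicate 4 (0.34). The part of muscle and of these member values in that count cannot be told apart.

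ID8 libraries formed the contrast, with few macrophage transcripts. Of the 33 members, 17 had 0 counts in all 6 ID8 libraries, among them Adgre1, C1qa, C1qb, C1qc, Itgam, Cx3cr1, Ccr2, Ctss, Tyrobp and Cd163. A count of 0 allows up to 0.153 to 0.158 CPM per library. Another 8 had 1 to 50 counts over all 6 libraries, such as Csf1r with 10 counts over the knockout and 3 over the wild-type libraries. Endothelial markers summed to 1.75 to 2.04 CPM in ID8 knockout and 2.26 to 2.66 CPM in ID8 wild type. The defining leukocyte transcripts Ptprc and Adgre1 were thus not detected in these libraries, which are labelled as tumours. The haemoglobin genes Hbb-bs, Hba-a1 and Hba-a2 had 0 counts as well. Of the fibroblast markers, Pdgfrb, Col1a2 and Lum were at most 0.104, 0.369 and 0.105 CPM. Pdgfra, Col1a1 and Dcn were at 40.2, 81.8 and 584 CPM in ID8 knockout and 39.1, 174 and 439 CPM in ID8 wild type. Col1a2, Lum and Dcn were named after their values were seen. Whether the ID8 RNA came from whole tumours, sorted cells or cultured cells was not stated in the labels, and the ID8 values describe libraries in which leukocyte and haemoglobin transcripts were at or near 0.

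Of the 7 members tested in ID8, 4 fell and none rose, where 50.8% of 11933 genes passed, 25.4% as higher and 25.5% as lower. Those that fell were Cd68, Cd14, Spp1 and Lgals3, and none of the 4 is limited to macrophages. Cd68 had 3.58, 3.69 and 5.29 CPM in ID8 knockout libraries, against 11.5, 10.7 and 12.2 CPM in ID8 wild-type libraries (log2 change -1.46, SE 0.131, edgeR adjusted p = 1.36e-07). Cd14 had 0.766, 0.564 and 0.462 CPM in ID8 knockout libraries, against 1.77, 1.27 and 1.58 CPM in ID8 wild-type libraries (log2 change -1.36, SE 0.275, edgeR adjusted p = 0.00063).

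Both were lower in all 3 knockout libraries, Cd14 at levels near 1 CPM. Spp1 had 608, 579 and 626 CPM in ID8 knockout libraries, against 973, 931 and 929 CPM in ID8 wild-type libraries (log2 change -0.64, SE 0.0478, edgeR adjusted p = 1.23e-08), and Lgals3 had 48.5, 46.7 and 49.9 CPM in ID8 knockout libraries, against 84.1, 72.9 and 70.2 CPM in ID8 wild-type libraries (log2 change -0.65, SE 0.0660, edgeR adjusted p = 5.67e-07). Again the groups did not overlap. The share of all ID8 genes whose groups did not overlap was not counted, and 50.8% of genes passed in ID8. The median over the 7 tested members was -0.64 on the log2 scale, against 0.01 over all genes tested in ID8. It was -0.66 to -0.35 when single libraries were left out, nearest to 0 without wild-type replicate 1, at -0.38 and -0.37 without knockout replicates 2 and 3 and at -0.40 without wild-type replicate 2.

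Mertk, Fcgr3 and Apoe did not pass in ID8. Mertk had 6.44, 6.82 and 6.06 CPM in ID8 knockout libraries, against 7.15, 6.64 and 6.99 CPM in ID8 wild-type libraries (log2 change -0.11, SE 0.106, edgeR adjusted p = 0.43). Fcgr3 had 62 counts over the knockout and 50 over the wild-type libraries (log2 change 0.27, SE 0.282, edgeR adjusted p = 0.443), and Apoe had 57 counts over the knockout and 51 over the wild-type libraries (log2 change 0.12, SE 0.278, edgeR adjusted p = 0.736). Gpnmb had more than 50 counts in all but did not pass the filter on low counts.

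For 3 of these 7 members the effect of the knockout was not the same in KPC as in ID8 by the edgeR interaction test. That test called 21.8% of 14921 genes, 11.6% higher in KPC relative to ID8 and 10.3% lower. The KPC minus ID8 difference on the log2 scale was 2.22 for Cd68 (SE 0.378, edgeR adjusted p = 0.000949), 1.49 for Lgals3 (SE 0.246, edgeR adjusted p = 0.000695) and 1.43 for Cd14 (SE 0.301, edgeR adjusted p = 0.00354). For Lgals3 the change was positive and called in KPC, and negative and called in ID8. For Cd68 and Cd14 only the ID8 decline passed alone. Mertk (0.58, edgeR adjusted p = 0.0926), Fcgr3 (0.66, adjusted p = 0.491), Apoe (0.16, adjusted p = 0.85) and Spp1 (-0.07, adjusted p = 0.99) did not pass this test.

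Spp1 had log2 changes of -0.74 in KPC and -0.64 in ID8, where Ptprc had no counts. For the other members the difference between the lines holds only the KPC change, since ID8 had too few counts. The contrast between the lines thus also sets libraries with leukocyte transcripts against libraries in which these were at or near 0. Levels in the lines were scaled separately.

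**Figure D5:**
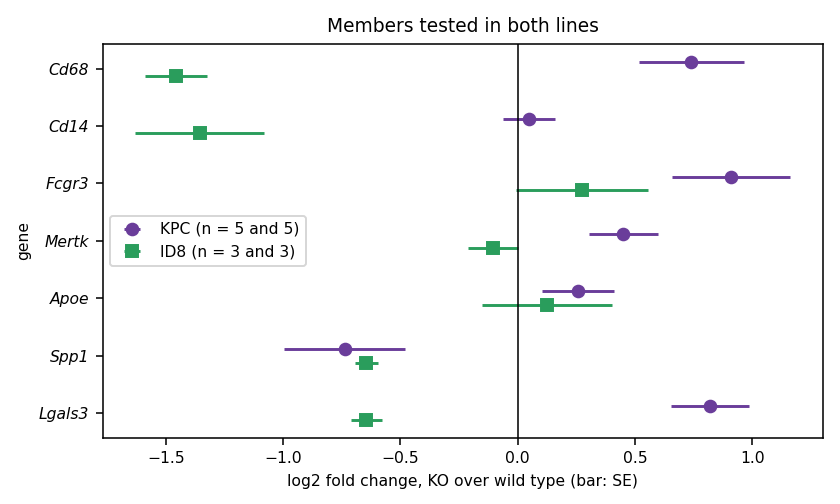
Log2 fold change, knockout over wild type, with the SE as a bar (x axis), of the 7 members tested in both lines (y axis), in KPC (circles, n = 5 and 5) and ID8 (squares, n = 3 and 3). Lgals3 and Cd68 lie right of 0 in KPC and left of 0 in ID8, and Spp1 lies left of 0 in both.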

How the data were processed

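Poly(A) selection, strand and read length are not given in the sources used here. The submitters' processing notes name HISAT, RSEM 1.2.8 and the build GRCm39 (mm39). The authors deposited expected counts in 4 tables, with no sign of normalization, and with 7.55% to 9.43% of values per library not whole. RSEM divides reads among genes that share sequence, which makes closely similar genes uncertain. The deposited expected counts were rounded, and 0 was used for genes that a table does not list. All 16 columns matched a sample by label. The labels number biological replicates, and no 2 libraries agreed within sampling noise.

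Tests used edgeR 4.0.16 in R 4.3.3 (TMM scaling, filterByExpr, robust quasi-likelihood F test) with Benjamini-Hochberg adjustment over all genes tested and a threshold of 0.05. KPC and ID8 had separate fits, and an interaction contrast over all 16 libraries compared their effects. The approximate SE is the log2 change over the root of F. Ratios and Trp53bp1 were tested by exact two-sided permutation tests. The scripts were tested on simulated data.

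Members, roles, marker lists and pathway lists were chosen with earlier results of these data known. Genes named are all members, up to 3 called genes per pathway list by smallest p (or, with none, the 2 of highest mean level), Trp53bp1, Ptprc, Acta1 and the first genes of marker lists. Retnlg is among the first 3 of its list, while Csf2rb, Syk and Plcg2 were named after their values were seen. Alternatives were other size factors, DESeq2 1.42.0, limma-voom (limma 3.58.1), 2 other filters, a replicate block, a joint fit, genes listed in both tables, a muscle covariate, a fit without libraries of Acta1 above 1000 CPM, a fold cut, other priors for ratios and leaving out each library. The count over the phagocyte oxidase list is not reported here.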

Additional observations from a re-analysis of the deposited data

Results flagged for a closer look

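Among 82 groups of 5 KPC libraries examined, 4 had a library far from the rest, where chance gives about 1 in 20. The wild-type values of Adgre1 and Ms4a7 each had replicate 4 far above the others, at 129.6 CPM and 47.0 CPM. Mertk in knockout had replicate 4 far above the others, at 68.0 CPM. The muscle transcript Acta1 in wild type had replicate 2 far above the others, at 7583 CPM.

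The knockout effect differed between the lines by the interaction test for 6 of 12 genes examined, where 21.8% of 14921 genes did. The 12 were the 7 members tested in both lines, Trp53bp1 and the ligand genes Csf1, Ccl2, Ccl7 and Cx3cl1. The calls of Cd68, Cd14 and Lgals3 are those given above. The KPC minus ID8 difference was 2.22 for Cd68, 1.43 for Cd14, 1.49 for Lgals3 and 0.76 for Trp53bp1 on the log2 scale. It was -3.23 for Ccl2 and -2.84 for Ccl7, the genes of chemokines that act on CCR2. Ccl2 had 239.5 CPM in ID8 knockout and 19.3 CPM in ID8 wild type, against 26.4 CPM in KPC knockout and 20.3 CPM in KPC wild type.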

How the results depend on the processing

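The 6 KPC members called (1953 genes in all) became 22 with DESeq2 (3162 genes), 19 with limma-voom (3134), 14 in the joint fit (3524), 27 without libraries of Acta1 above 1000 CPM (2020), 2 with a log2 change of at least 1 as well (550), and 1 with the muscle covariate (437). Leaving out single libraries gave 4 to 27, the highest without wild-type replicate 4 (3106 genes). The log2 cut left Cd163 and Ctss. In the other 20 alternatives Cx3cr1 kept its call (log2 change -0.95 to -0.79), and Cd163, Ctss and Lgals3 lost theirs with the muscle covariate alone (log2 change 1.08, 0.96 and 0.72, edgeR adjusted p = 0.0755, 0.111 and 0.0835), while Fcgr3 and Fcgr2b lost theirs with it and in 8 of 10 fits without a library. The causes were not tested.

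The 4 ID8 members called became 2 with the log2 cut (747 genes), 3 in the joint fit (2681) and 5 with no filter (6294). In the joint fit Spp1 lost its ID8 call (edgeR adjusted p = 0.124). Leaving out single libraries gave 4 each time. The 3 interaction calls became 3 to 4. The ID8 member median of -0.64 was -0.15 with no filter and 0 in the joint fit, where members with few or no ID8 counts enter.

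The same replicate numbers did not mark paired samples, since same-number correlations of deviations were -0.54 to 0.56 in KPC and -0.12 to 0.17 in ID8. With a replicate block 16 KPC members and 1665 genes were called, and the Adgre1 to Ptprc and Ccr2 to Adgre1 ratios no longer passed (differences -0.57 and 0.49, exact adjusted p = 0.104 each). Without libraries of high Acta1 they were -0.61 and 0.53 (exact adjusted p = 0.167 each), where 3 against 3 cannot go below p = 0.1. Leaving out single libraries gave differences of -0.67 to -0.49 for Adgre1 to Ptprc, 0.38 to 0.55 for Ccr2 to Adgre1, -1.79 to -1.18 for Spp1 to Csf1r, -0.21 to 0.00400 for Trem2 to Csf1r and -0.0150 to 0.0716 for Mrc1 to Csf1r, and log2 changes of -0.63 to -0.51 for Trp53bp1 in KPC and -1.36 to -1.28 in ID8.

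Signs turned only for uncalled values: Cd14 in KPC (-0.0236 with limma-voom, -0.0897 with the muscle covariate, -0.0235 to 0.145 without single libraries, negative without knockout replicate 1), Apoe in ID8 (-0.0763 to 0.253 without single libraries, negative without knockout replicate 2 and, at -0.00271, wild-type replicate 1) and the Spp1 interaction (0.00181 with the replicate block, -0.23 to 0.0995 without single libraries, positive without KPC wild-type replicates 1 and 5 and knockout replicate 4). For members at 0 counts in ID8, depth sets the limit.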
